A study of Mus musculus with 2 samples.

Results

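The extracellular matrix genes described here encode the hyaluronan, proteoglycan and tenascin matrix of the brain. They were picked by symbol, and the rule itself uses no measured value, but the set was drawn up with earlier results of these data known. All 10 were found among the 43346 genes with Ensembl identifiers. The set holds the 4 lecticans (Ncan, Bcan, Vcan and Acan), the tenascins Tnc and Tnr, the link protein genes Hapln1, Hapln2 and Hapln4, and the hyaluronan synthase gene Has2.

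The tissue was hindbrain of B6NCrl mouse embryos at embryonic day 16.5, pooled from males and females and described as healthy. A single group was sequenced, as 2 biological replicates of 1 library each, and replicate 2 came from 37 embryos. The sources used here do not give the size of the other pool, and both pools carry 1 donor identifier in the labels. No genotype, treatment or control group enters, so the data hold no contrast between conditions, and permuting 2 libraries cannot give a p below 0.5. No p is printed for that reason.

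In this matrix, hyaluronan synthases at the plasma membrane extrude the polysaccharide hyaluronan. Lecticans are chondroitin sulfate proteoglycans that bind hyaluronan through their N-terminal end and tenascins through their C-terminal end. Link proteins clamp the lectican to hyaluronan. In the embryo the matrix surrounds migrating cells and growing axons, and in the adult a denser form, with Acan, Tnr and Hapln1 among its defining parts, encloses certain neurons as the perineuronal net.

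Isoforms of Vcan differ in exactly the part that carries chondroitin sulfate chains, and 4 exon junctions separate them. The gene has a 5′ long coding exon of 2880 bases (chromosome 13, 89702918 to 89705797, GRCm38, minus strand) and a 3′ long coding exon of 5217 bases (89688285 to 89693501). These exons encode the regions named GAG-alpha and GAG-beta. V0 keeps both, V1 the 3′ one, V2 the 5′ one and V3 neither. Each junction is written 5′ to 3′ in transcript sense, with the last 20 bases of the upstream exon in lower case and the first 20 of the downstream exon in capitals, from the GENCODE M21 transcripts.
V0, Vcan-203: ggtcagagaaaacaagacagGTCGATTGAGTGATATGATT
V1, Vcan-206: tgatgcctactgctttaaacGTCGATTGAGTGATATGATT
V2, Vcan-202: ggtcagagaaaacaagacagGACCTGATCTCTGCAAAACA
V3, Vcan-201: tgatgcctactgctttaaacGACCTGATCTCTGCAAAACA
V0 and V2 share their left side, the end of the 5′ long exon, and V0 and V1 share their right side, the start of the 3′ long exon. In each case the full 40-base run was found in 1 annotated Vcan transcript.

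Tenascin-C is known for alternative splicing of its fibronectin type III repeats, and its quantified transcripts differ by a whole coding exon. Tnc-203 holds an exon of 273 bases (chromosome 4, 63984460 to 63984732, GRCm38, minus strand), which is 91 codons and the 14th of its 26 coding exons. Tnc-204 and Tnc-201 skip it. The exon and the skipping junction are shown because the Tnc reads were divided between these forms; in the junction the capitals again mark the downstream exon.
Exon of Tnc-203: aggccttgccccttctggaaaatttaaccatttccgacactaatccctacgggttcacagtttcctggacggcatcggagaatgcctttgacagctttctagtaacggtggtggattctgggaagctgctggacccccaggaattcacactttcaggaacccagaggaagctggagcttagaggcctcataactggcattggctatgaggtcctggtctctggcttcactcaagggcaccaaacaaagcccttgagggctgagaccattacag
Skipping junction, Tnc-204 and Tnc-201: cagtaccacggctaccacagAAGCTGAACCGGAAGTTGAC

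The libraries were close in depth, with 41543180 and 41346951 expected counts assigned to genes, of which the 10 matrix genes took 54753 and 50929. Levels are given as TPM, a relative abundance corrected for length and scaled to a fixed total, so that they can be compared between genes. The tissue label was checked against regional markers. Hoxa2, Hoxb3, Hoxb4 and Atoh1 lay between 2.07 and 19.6 TPM in both libraries. En2, a gene of the midbrain-hindbrain border that was also entered as a hindbrain marker, was below 1 TPM, at 0.34 and 0.46. The forebrain gene Emx1 stood at 0.93 TPM in the first library and was listed at 0 in replicate 2. Muscle markers were also far higher in replicate 1, so values of both libraries are printed throughout. In whole tissue, fewer cells of a type and less RNA per cell cannot be told apart.

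Ncan and Bcan led the set, Tnc and Vcan followed, and the genes of the adult net, the link proteins and Has2 lay low. The summed level of the 10 genes was 390 TPM in replicate 1 and 382 in replicate 2. At 1 TPM or more in both libraries were 5 of the 10 genes (Ncan, Bcan, Tnc, Vcan and Tnr), against 63.5% of all protein-coding genes. Hapln1, Hapln4, Acan, Hapln2 and Has2 were below 1 TPM in at least 1 library.

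**Figure D1:**
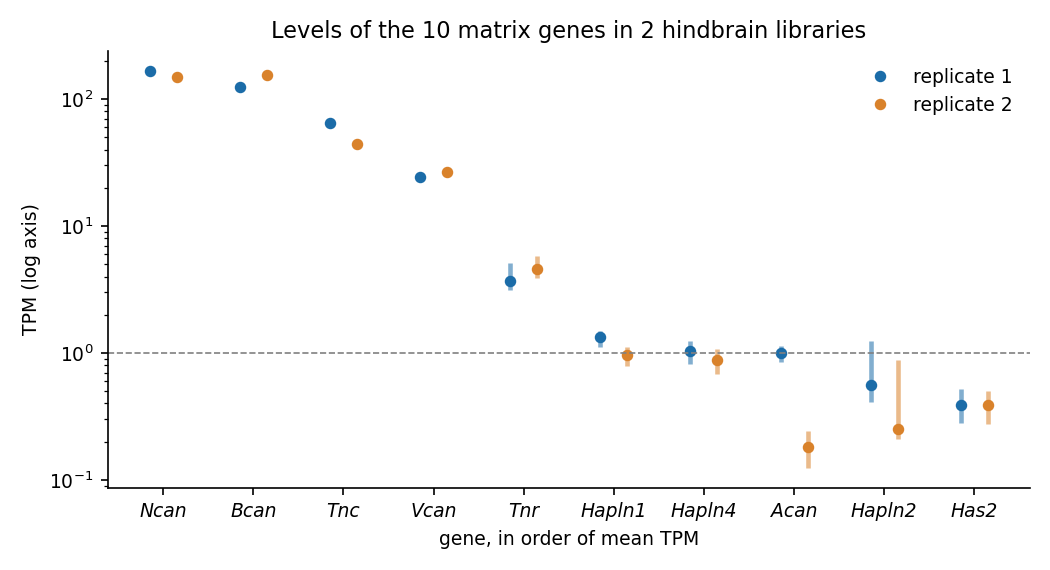
Level of each of the 10 matrix genes (x axis, in order of mean) as TPM on a log axis, with a point per library and a vertical line for the deposited interval of that library; the dashed line marks 1 TPM. Ncan, Bcan, Tnc, Vcan and Tnr lie above the line in both libraries, and Acan is the one gene whose points lie more than 5-fold apart.

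Ncan (ENSMUSG00000002341.8, chromosome 8, 70093085 to 70120873), which encodes neurocan, a secreted lectican of the developing nervous system, stood at 168 TPM in replicate 1 and 149 in replicate 2. Its mean of 158 ± 13.6 TPM (SD, n = 2) exceeded that of 95.3% of protein-coding genes. The libraries held 29888 and 27120 counts of it, the most of any of the 10 genes. The deposited TPM lay above its own deposited interval in both libraries (162 to 166 and 144 to 147), so that interval does not bracket the Ncan level.

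Bcan (ENSMUSG00000004892.9, chromosome 3, 87987531 to 88000230), the gene of brevican, a lectican that glial cells are known to make, stood at 126 and 155 TPM. The mean was 140 ± 20.9 TPM (SD, n = 2). Bcan was thus the higher of the pair in replicate 2 and Ncan in replicate 1, with a Ncan to Bcan ratio of 1.34 and then 0.957. The order of these 2 genes was not settled at the gene level. In protein-coding transcripts alone Ncan was the higher in both libraries, by 0.73 and 0.21 on the log2 scale, and in replicate 2 its interval of 144 to 147 TPM lay above that of the coding transcript Bcan-201, at 123 to 128. Beside the higher Bcan value in replicate 2, 5 of 9 astrocyte markers were also higher in TPM there and 4 were lower. In counts scaled with TMM, 7 of the 9 were higher in replicate 2, 2 of them by over 2-fold, and 2 were lower. Of 13843 protein-coding genes averaging at least 1 TPM, 6488 were higher there in scaled counts, 55 by over 2-fold. The summed level of the astrocyte markers was 812 TPM in replicate 1 and 978 in replicate 2. Gfap, an astrocyte filament protein, had 4.03 and 13.0 TPM, and the water channel gene Aqp4 12.1 and 26.8. Their part in the Bcan difference was not tested.

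Vcan (ENSMUSG00000021614.12, chromosome 13, 89655312 to 89742509), which encodes versican, a lectican found in many embryonic tissues, was nearly equal in the libraries at 24.4 and 26.6 TPM. It was 6.21-fold below Ncan on the mean of the log2 ratios, and its interval was apart from that of Ncan in both libraries. The replicate 2 to replicate 1 ratio of its scaled counts was 1.00, with a 95% counting interval of 0.962 to 1.05.

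Acan (ENSMUSG00000030607.6, chromosome 7, 79053483 to 79115099), the gene of aggrecan, the large lectican of cartilage and of perineuronal nets, was low and uneven. It had 1.00 TPM from 182 counts in replicate 1 and 0.18 TPM from 34 counts in replicate 2. The deposited intervals, 0.842 to 1.13 and 0.124 to 0.244, did not overlap. Aggrecan made up 0.314% of the summed lectican TPM in replicate 1 and 0.0544% in replicate 2, whereas Ncan and Bcan together made up over 91% in both: 52.6% and 39.4% in replicate 1, and 44.9% and 47.0% in replicate 2.

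Among the tenascins, hexameric or trimeric glycoproteins that bind lecticans, Tnc (ENSMUSG00000028364.11, chromosome 4, 63959785 to 64047015) was the major one. It is a tenascin of progenitor zones and immature glia. Its level was 64.5 TPM in replicate 1 and 44.6 in the other library, and these intervals did not overlap either. The mean was 54.6 ± 14.0 TPM (SD, n = 2), above 85.0% of protein-coding genes.

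Tnr (ENSMUSG00000015829.9, chromosome 1, 159523769 to 159931729), the tenascin of oligodendrocytes and of perineuronal nets, had 3.72 and 4.60 TPM. Tnc exceeded it 17.3-fold in replicate 1 and 9.70-fold in replicate 2, and the intervals of the pair were apart in both. Tnr overlaps the antisense gene Gm38039, which had 8.99 and 8.90 TPM (77.6 and 78.7 counts); since the sources used here do not say whether counting used strand, reads of these genes cannot be told apart where they overlap.

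The remaining tenascin genes were lower still. Tnxb, a tenascin of connective tissue, had 0.28 and 0.25 TPM. Tnn, the gene of tenascin-W, a tenascin of bone and muscle-associated tissue, had 0.36 TPM from 52 counts in replicate 1 and 0.06 TPM from 9 counts in replicate 2. Tnc therefore made up 93.7% and 90.1% of the TPM of the 4 tenascin genes, and Tnr 5.40% and 9.29%.

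The link protein genes were far below the lecticans Ncan, Bcan and Vcan. Acan, at 1.00 and 0.18 TPM, was itself low and did not stand above them. Hapln1 (ENSMUSG00000021613.8), the link protein of cartilage and of perineuronal nets, had 1.33 and 0.96 TPM (165 and 123 counts). Hapln4 (ENSMUSG00000007594.9), a brain link protein that partners brevican, had 1.04 and 0.88 TPM (91 and 79 counts). The intervals of Hapln1 and Hapln4 overlapped in both libraries, so their order was not settled.

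Hapln2 (ENSMUSG00000004894.6), a link protein of myelinated axons at the nodes of Ranvier, had 0.56 and 0.25 TPM from 23 and 13 counts. All of these counts were assigned to transcripts annotated as retaining an intron, 91.5% and 97.3% of them to a model of 2338 bases, and the protein-coding model of 1711 bases was listed at 0 in both libraries. In the same libraries 6 of 7 markers of myelinating oligodendrocytes were at 1 TPM or more, against 63.5% of all protein-coding genes. They were led by Cnp at 61.0 and 71.2 TPM, Cldn11 at 61.0 and 42.2 and Mbp at 34.5 and 37.4. Whether myelinating cells were present was not tested.

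Hapln3, a link protein of wider tissue distribution that is not one of the 10 genes, was the highest of its family at 3.23 and 2.30 TPM. It rested on 108 and 79 counts in a single quantified transcript of 1433 bases, which GENCODE M21 lists as a target of nonsense-mediated decay. Summed over the 4 lecticans, TPM was 51.8 times the sum of the 4 link protein genes in replicate 1 and 75.3 times in replicate 2.

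Has2 (ENSMUSG00000022367.7, chromosome 15, 56665627 to 56694539), the hyaluronan synthase that embryonic heart development requires, was at 0.39 TPM in both libraries, with 41 counts in each. Equal values in 2 libraries do not make the level precise, as the 95% counting interval of the replicate 2 to replicate 1 ratio ran from 0.639 to 1.60. Has1 had 1.30 and 1.33 TPM and Has3 1.37 and 1.03. Both were above Has2 with intervals apart in both libraries, Has1 by 3.37-fold and Has3 by 3.05-fold on the mean of the log2 ratios. The noncoding Has2os, on the opposite strand and overlapping Has2, had 1.12 and 1.30 TPM.

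In the order of mean TPM, 4 of the 9 neighbouring steps were kept apart by the deposited intervals in both libraries. These were Bcan over Tnc, Tnc over Vcan, Vcan over Tnr and Tnr over Hapln1. Below Tnr no neighbouring step was kept apart. Over all 10 pairs of the 5 lowest genes, 2 were: Hapln1 and Hapln4 both lay above Has2 in each library. Hapln4 lay apart from Acan in replicate 2, where it was 4.89-fold higher, and not in replicate 1, where the ratio was 1.04.

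Per transcript, Vcan was divided mainly between V0 and V3. The deposited share of Vcan transcripts was 46.1% and 38.2% for V0 (Vcan-203, mean 42.2 ± 5.61%, SD, n = 2) and 32.9% and 36.1% for V3 (Vcan-201, mean 34.5 ± 2.25%). V0 and V3 were apart in replicate 1, with intervals of 10.5 to 11.5 TPM against 6.07 to 8.95, and overlapped in replicate 2, at 9.41 to 10.3 against 7.84 to 10.7. Their order was thus not settled across the replicates.

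V2 (Vcan-202), the form regarded as the main versican of the mature brain, took 7.44% and 9.53% of Vcan transcripts. V1 (Vcan-206) took 1.71% and 1.27%. Their intervals were apart in both libraries, 1.20 to 2.63 TPM against 0.206 to 0.714 in replicate 1 and 1.78 to 3.30 against 0.171 to 0.599 in replicate 2, so V2 was above V1 in each. Vcan-208, an incomplete model of 861 bases, took 4.23% and 6.87%. Counting all transcripts with a full coding sequence, 59.1% and 54.2% of TPM included the 5′ long exon, and 52.8% and 44.8% the 3′ long exon.

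The same shares look different per read. V0 is 12427 bases long and V3 2321, and V0 held 79.9% of the Vcan counts in replicate 1 and 74.4% in replicate 2, against 10.3% and 12.7% for V3. A V3 level of 8.02 and 9.59 TPM therefore rested on 448 and 548 counts. The annotated V0 also holds 1203 bases, all outside the coding sequence, that none of the V1, V2 and V3 models has. Reads there can be assigned to V0 and to none of the other 3. The shares of V0, V1, V2 and V3 therefore depend on how complete the ends of the models are.

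**Figure D2:**
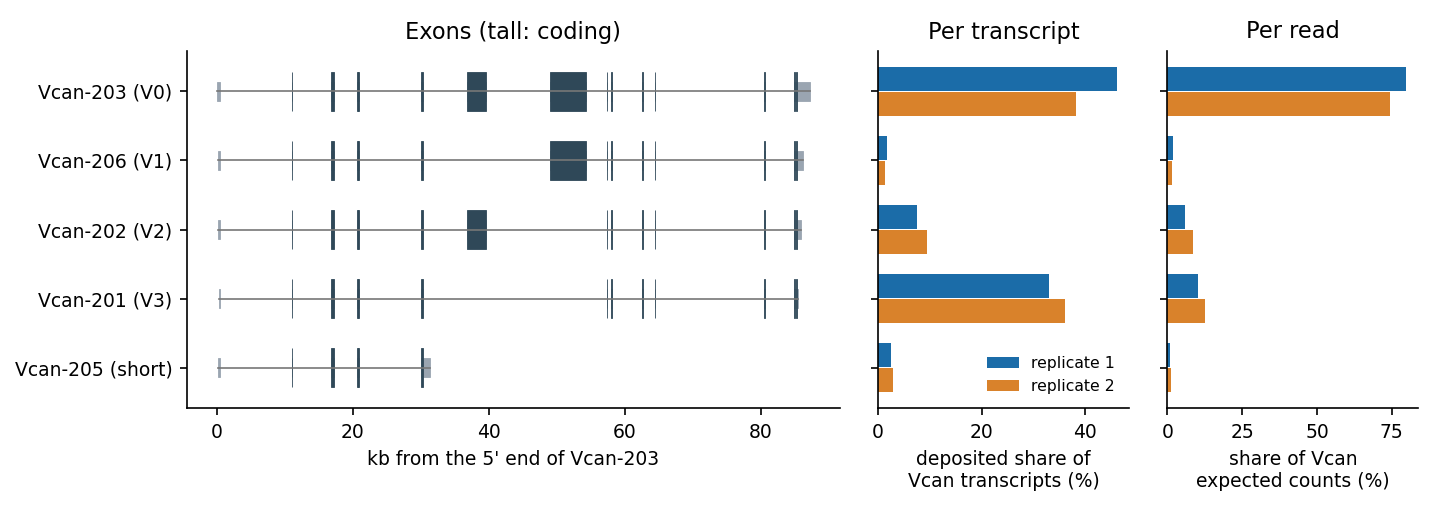
Exon maps of the 5 Vcan transcripts with a full coding sequence (left, kilobases from the 5′ end of Vcan-203, tall boxes coding), their deposited share of Vcan transcripts (middle, percent) and their share of Vcan expected counts (right, percent), with a bar per library. V0 and V3 lead per transcript, at 46.1% and 32.9% in replicate 1, while V0 alone holds 79.9% of the counts there.

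The Tnc reads were shared by the forms with and without the 273-base exon printed above. Tnc-203, which includes it, took 55.0% and 59.9% of Tnc transcripts, and Tnc-204, which skips it, 44.2% and 39.5%. The form with the exon was higher in both libraries, at 31.9 to 36.8 TPM against 25.3 to 30.1 in replicate 1 and 24.4 to 27.8 against 15.3 to 18.7 in replicate 2. Tnc-201 has the same coding sequence as Tnc-204 and was listed at 0. The 2 leading models also differ in the length of their untranslated part ahead of the coding sequence, so the split does not rest on the exon alone.

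Annotated transcripts that retain an intron took part of other members. Of Tnr transcripts 44.5% and 46.5% were assigned to Tnr-205, a 660-base model that retains an intron and held 23.3 and 30.8 counts. Leaving it out, the protein-coding Tnr transcripts summed to 2.07 and 2.47 TPM. The full-length Tnr-202 and Tnr-201 encode a coding sequence of the same length and took 36.5% and 26.6%, and 11.9% and 24.6%. For Bcan, Bcan-201 took 80.5% and 82.5% and models that retain an intron took 19.4% and 17.5%, which left 101 and 128 TPM in the coding transcripts. Ncan, Acan, Hapln1, Hapln4 and Has2 each had 1 quantified transcript.

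Each lectican gene lies beside a link protein gene, and the levels of the neighbours were far apart. No annotated gene lies between the members of any of the 4 pairs. Ncan and Hapln4 are 2222 bases apart on chromosome 8, tail to tail. Bcan and Hapln2 are 21519 bases apart on chromosome 3 and run in the same direction. Vcan and Hapln1 are 43659 bases apart on chromosome 13, tail to tail, and Acan and Hapln3 have 2 bases between their 3′ ends on chromosome 7.

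The lectican was the higher of the neighbours in 3 of the 4 pairs. Ncan exceeded Hapln4 by 161-fold and 169-fold, the steadiest of the 4 ratios between the libraries. Bcan exceeded Hapln2 by 224-fold and 621-fold, with Hapln2 resting on 23 and 13 counts. Vcan exceeded Hapln1 by 18.3-fold and 27.7-fold. Acan was the exception: Hapln3 was above it by 3.23-fold in replicate 1 and 12.8-fold in replicate 2. Intervals were apart in both libraries for all 4 pairs. With strand of counting not given, reads at the closely spaced ends of Acan and Hapln3 may have been assigned to either.

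**Figure D3:**
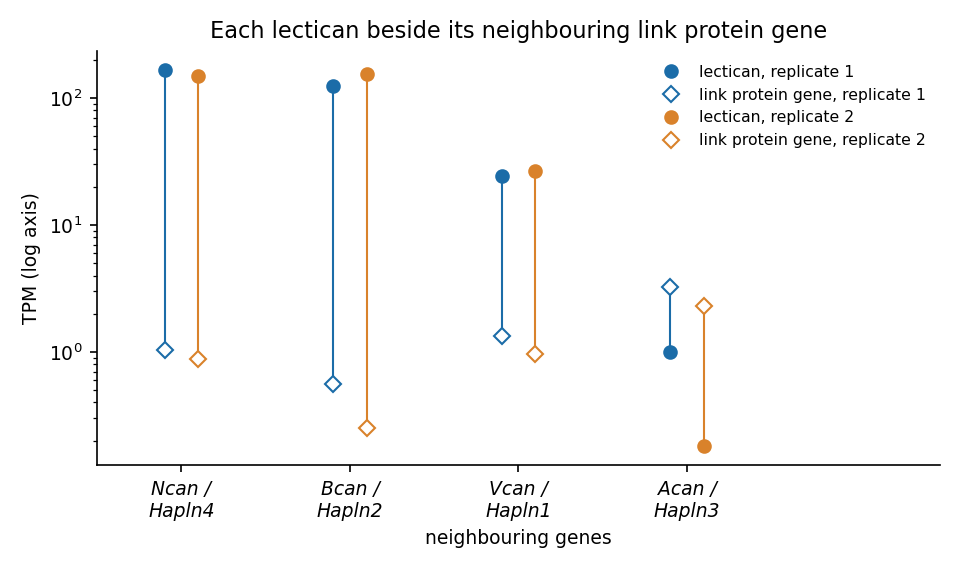
TPM on a log axis of each lectican (filled circles) and of the link protein gene beside it on the chromosome (open diamonds), for the 4 neighbouring pairs on the x axis, with a line joining the pair in each library. In the first 3 pairs the lectican is higher in both libraries, and in Acan and Hapln3 the link protein gene is higher, by 3.23-fold and 12.8-fold.

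Between the libraries the 6 members averaging at least 1 TPM stayed within 2-fold, as did nearly all protein-coding genes at that level. Log2 ratios of replicate 2 over replicate 1, from counts scaled with TMM, were 0.38 for Bcan, 0.16 for Tnr, 0.00 for Vcan, -0.13 for Ncan, -0.41 for Hapln1 and -0.48 for Tnc. None of these 6 genes was over 2-fold apart, against 1.51% of protein-coding genes at that level and 4.5% of genes of any type. This is therefore not particular to the matrix genes. Their median was -0.06, beside -0.02 over the protein-coding genes. Scaling by the spike-in totals moved every ratio toward replicate 2 by 0.45, and the median of the 6 genes was then 0.39 and that of protein-coding genes 0.43. On that scale Ncan stood at 0.32, Hapln1 at 0.04 and Tnc at -0.03, so that the direction of Ncan and Hapln1 depends on the scaling, and Tnc was near 0.

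Intervals between the libraries did not overlap for 3 of these 6 genes, Ncan, Bcan and Tnc, against 31.4% of protein-coding genes averaging at least 1 TPM. All 3 had at least 8014 counts in each library. Their counting error is small at that depth, and, on the TMM scale, the gaps of 1.09-fold for Ncan (higher in replicate 1), 1.30-fold for Bcan (higher in replicate 2) and 1.39-fold for Tnc (higher in replicate 1) were within the 2-fold limit.

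**Figure D4:**
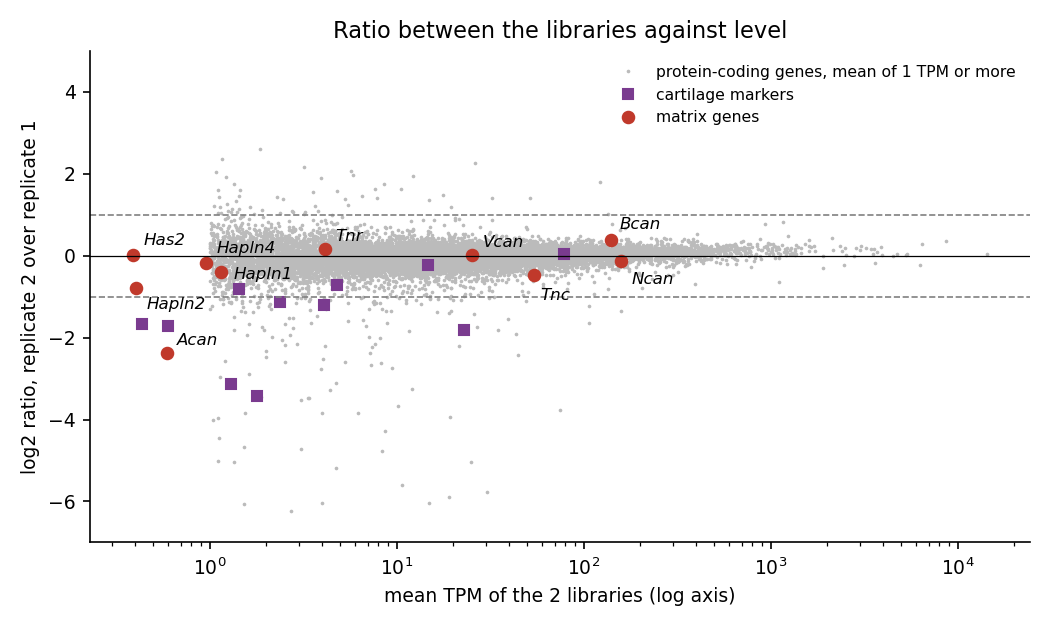
Log2 ratio of replicate 2 over replicate 1 (y axis) against mean TPM on a log axis, for protein-coding genes averaging at least 1 TPM (grey), the 10 matrix genes (red circles, named) and cartilage markers (purple squares); dashed lines mark 2-fold. Acan, at -2.39, is the only matrix gene beyond 2-fold, and lies among the cartilage markers.

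Below that level Acan differed. Of the 10 genes, all with 10 or more counts in a library, Acan alone was over 2-fold higher in replicate 1, against 2.55% of protein-coding genes at that count. Its scaled counts were 5.24-fold higher there, with a 95% counting interval of 3.66 to 7.89. Tnn differed by a similar 5.47-fold (2.79 to 13.2), on few counts. These intervals cover counting error only.

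Markers of cartilage moved the same way as Acan. Of 11 cartilage markers, 9 averaged at least 1 TPM, and 8 of the 9 were higher in replicate 1 in scaled counts, 5 of them by over 2-fold. Over all 13843 protein-coding genes at that level, 7355 were higher in replicate 1, 154 of them by over 2-fold. The same background stands beside the muscle and meningeal counts below. Col2a1, the main collagen of cartilage, had 36.3 and 9.84 TPM. Matn1, a cartilage matrix adaptor, had 3.31 and 0.29 TPM, and Comp, a cartilage and tendon protein, 2.36 and 0.25. Cnmd had 5.80 and 2.41 TPM, Col9a1 3.20 and 1.54, Epyc 1.01 and 0.19 and Matn3 0.67 and 0.20. Col9a3, by contrast, was level at 78.7 in both libraries, and Col9a2 had 16.4 and 13.0. No marker was listed at 0.

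The summed cartilage markers were 155 TPM in replicate 1 and 111 in replicate 2, or less than 1.5-fold apart, because the level Col9a3 dominates the sum. All 6 muscle markers were over 2-fold higher in replicate 1, with sums of 257 and 14 TPM; Acta1 had 140 and 9.94 TPM, Tnnc2 37.6 and 0.57, Mylpf 35.9 and 2.77, Ckm 29.3 and 0.42, Myh3 9.28 and 0.24 and Myog 5.39 and 0.06. Among 9 meningeal fibroblast markers, the 8 averaging at least 1 TPM were all higher in replicate 1 in TMM-scaled counts, with sums over the list of 876 and 516 TPM. On that scale the collagen gene Col1a1 was the only one beyond 2-fold, at 231 and 88.0 TPM, beside Col3a1 at 255 and 156 and Col1a2 at 173 and 95.7. With spike-in totals the median log2 ratio of the meningeal markers was 0.04 in place of -0.41, so its direction depends on the scaling. The medians with spike-in totals stayed negative for cartilage, at -0.68, and muscle, at -5.09. The part of these tissues in the Acan, Tnn and Tnc differences was not tested.

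**Figure D5:**
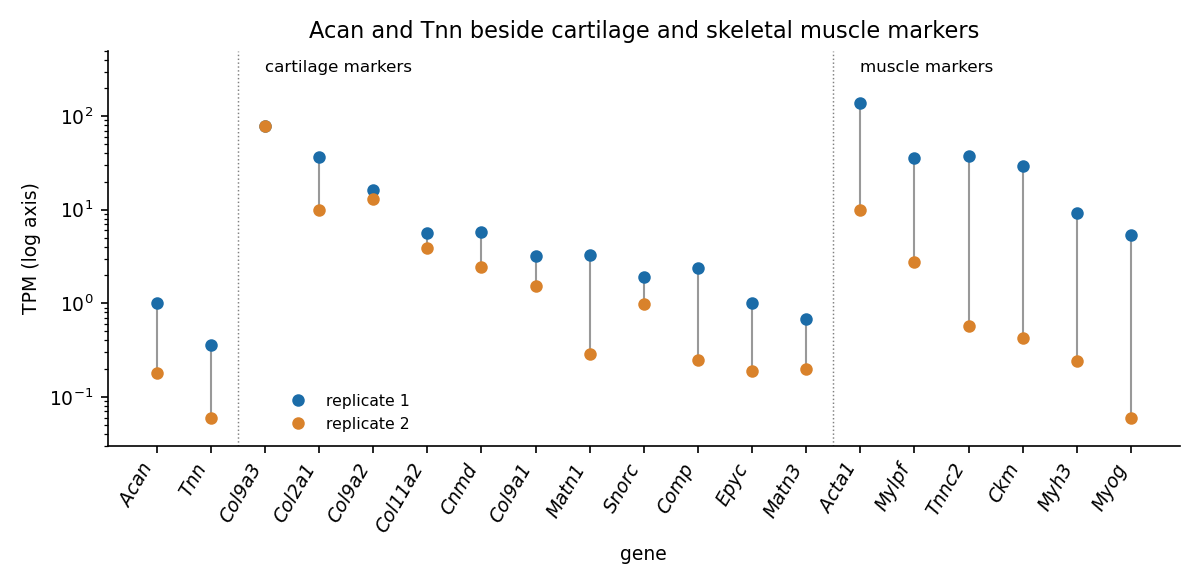
TPM on a log axis of Acan and Tnn beside the 11 cartilage and 6 skeletal muscle markers (x axis), with a point per library joined by a line. Col9a3 is level and the others are higher in replicate 1; Acan goes from 1.00 to 0.18 and Col2a1 from 36.3 to 9.84.

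Markers of cell types known to make lecticans and tenascins were detected in both libraries. All 9 astrocyte, 6 radial glia and 6 measured oligodendrocyte precursor markers were at 1 TPM or more in both, against 63.5% of all protein-coding genes. Leading the astrocyte list were Aldoc (329 and 475 TPM), Slc1a3 (222 and 214) and Gja1 (118 and 114). Slc1a3 is shared with the radial glia list, which Fabp7 (1841 and 2399) and Vim (389 and 317) led. Among precursor markers Olig1 had 129 and 159 TPM, Pdgfra 17.0 and 15.2 and Gpr17 10.4 and 11.9. Neuronal, endothelial and microglial markers were also all detected. Tubb3, Stmn2 and Map2 led the neuronal list at 1568 and 1629, 1072 and 1242, and 296 and 256.5 TPM. Cldn5 (105 and 104), Kdr (23.9 and 18.1) and Pecam1 (17.6 and 13.8) led the endothelial list, and C1qb (41.8 and 45.1), Csf1r (16.8 and 14.8) and Aif1 (4.75 and 8.53) the microglial one. The level of a matrix gene cannot be assigned to any of these cell types from whole tissue.

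The wider machinery around these genes was broadly present. Detected counts in these lists stand beside 63.5% of all protein-coding genes at 1 TPM or more in both libraries. All 26 of the other proteoglycan core proteins were at 1 TPM or more in both libraries, with a median of 38.2 TPM against 5.82 over all protein-coding genes. The amyloid precursor family members App (406 and 437 TPM) and Aplp2 (288 and 287), part-time proteoglycans, led it, followed by the heparan sulfate proteoglycan Sdc3 (157 and 126). Ptprz1, whose shed form phosphacan is a chondroitin sulfate proteoglycan that binds tenascins, had 52.0 and 46.3 TPM, between Tnc and Vcan on the mean. Cspg5, or neuroglycan C, had 84.3 and 86.7 TPM, and Cspg4, the NG2 proteoglycan of oligodendrocyte precursors, 5.79 and 5.54.

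Enzymes that build and sulfate chondroitin chains were detected for 26 of 27 genes. The highest were the sulfate donor synthase Papss1 (110 and 112 TPM), the linker glucuronyltransferase B3gat3 (80.5 and 80.2) and the sulfate donor transporter Slc35b2 (57.3 and 54.5). Of the sulfotransferases that act at position C4 of chondroitin, Chst12 had 25.0 and 22.6 TPM, Chst11 3.48 and 3.0 and Chst13 0.15 and 0.20. Of those that act at C6, Chst7 had 8.09 and 9.45 TPM and Chst3 1.60 and 1.39. Chst15, which adds a second sulfate to 4-sulfated units, had 19.4 and 14.8. None of the 26 was over 2-fold apart.

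Of 12 genes for hyaluronan receptors and turnover, 9 were detected, or 75% beside 63.5% of all protein-coding genes. The hyaluronidase gene Hyal2 led at 57.5 and 50.3 TPM, ahead of Cemip2 at 17.1 and 11.4 and the scavenger receptor gene Stab1 at 14.9 and 11.6. Cd44, the main hyaluronan receptor, had 4.32 and 3.89. The summed synthases stood at 3.06 and 2.75 TPM, below Hyal2 alone.

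Matrix proteases and inhibitors were detected for 18 of 19 genes, and were led by the tissue plasminogen activator Plat (106 and 104 TPM) and the metalloproteinase inhibitors Timp2 (82.1 and 79.6) and Timp3 (49.4 and 46.9). The lectican-cleaving Adamts4 had 5.53 and 5.02 TPM and Adamts5 4.76 and 4.85. Of 26 receptors and binding partners, 25 were detected. They were led by the adhesion molecule genes Ncam1 (385 and 342 TPM) and L1cam (118 and 91.3) and by Ptprs (174 and 142), a receptor for chondroitin sulfate. No gene of these lists averaging at least 1 TPM was over 2-fold apart between the libraries, against 1.51% of protein-coding genes at that level. Their median log2 ratios ran from -0.19 for the other proteoglycan core proteins to -0.05 for chondroitin chain synthesis, beside -0.02 over protein-coding genes. With spike-in totals the medians of these lists were 0.26 and 0.40, beside 0.43, so their sign depends on the scaling.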

How the data were processed

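Total RNA longer than 200 bases was extracted (mirVana), 10 ng entered each library and spike-ins were added, per the labels. The authors quantified each replicate against mm10 with the M4 release of GENCODE, as the deposited notes say. The sources used here do not name the tool, read layout or strand setting. The deposited expected counts are reads assigned by a model, in fractions where needed. Deposited TPM values are corrected for effective length and sum to a fixed total that includes spike-ins. The deposited FPKM values served as an alternative. Bounds on TPM and FPKM are interval limits that the authors deposited without a level in the file headers, and are treated as scores. The deposited percent values give each transcript's share of the TPM of its gene.

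GENCODE M21 (GRCm38, which is mm10) gave names, gene types, exons and sequences, matched by unversioned identifier. Lengths of the Hapln1 and Hapln4 transcripts differ between the deposited tables and M21. Expected counts were rounded without spike-ins, and edgeR 4.0.16 under R 4.3.3 supplied TMM factors; log2 ratios used a prior count of 0.5 and a mean of 1 TPM or more. DESeq2 1.42.0 gave alternative size factors. Counting intervals are exact binomial at 95%. Python 3.11.15, pandas 2.3.3, SciPy 1.17.1 and Matplotlib 3.10.9 were used, and the ratios were tested on simulated data. Levels of 2 genes or transcripts were called apart where their deposited intervals were disjoint in each library.

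Members and lists were chosen with earlier results of these data known. Genes named are the 10 members, the remaining genes of the 4 families, the 3 highest of each list, list genes over 2-fold apart with at least 10 counts, Vcan transcripts at 5% or more, and leading transcripts. Ptprz1, Cspg5, Cspg4, Chst3, Chst7, Chst11, Chst12, Chst13, Chst15, Cd44, Adamts4, Adamts5, V1 of Vcan and the regional markers were named after their values were seen. Some regional markers are not reported here.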

Additional observations from a re-analysis of the deposited data

How the results depend on the processing

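With 2 libraries, leaving 1 out cannot move a mean by over 1 SD, so such values are not counted for levels, ratios and Vcan shares. Over the counts, medians and Vcan shares, 34 of 38 alternative values stayed within 1.5 times the reported count or within 1 SD, and 4 did not. The 34 include the neighbouring steps under FPKM intervals, which had little room to move. Within a library FPKM differs from TPM essentially by a constant factor. In replicate 1 alone 8 genes reached 1 TPM and in replicate 2 alone 5, since Hapln1, Hapln4 and Acan reached it in replicate 1 only. With no filter on low values 1 gene, Acan, was over 2-fold apart. With spike-in totals the median log2 ratio of the members was 0.39. With transcripts of full coding sequence alone, the Vcan share with neither long exon was 41.7%, beside 37.2% over all transcripts. Over single genes and pairs 35 of 51 alternative values stayed within 1 SD and 16 did not, and no called pair changed direction. Some of the 35 could not have moved. The only quantified transcript of Ncan, Acan, Hapln1, Hapln4 and Has2 is protein coding, so their values in coding transcripts alone equal the reported ones. Acan alone ranged from 0.18 to 1.00 TPM between the libraries, and Vcan over Acan from 4.61 to 7.21 on the log2 scale. In coding transcripts alone Ncan over Bcan, which was not called, was 0.47 in place of 0.18 and positive in both libraries. Of those 16, 8 are FPKM values, which lie on another scale. In coding transcripts alone Tnc exceeded Tnr by 4.57 on the log2 scale in place of 3.70. No ratio could be formed in coding transcripts alone for Bcan over Hapln2, Hapln1 over Hapln2 or Acan over Hapln3, as Hapln2 and Hapln3 have none above 0. No paired analysis was possible because there was 1 group. Depth limits the 5 lowest genes: 3 counts in a 1 kb transcript equal about 0.126 TPM in replicate 1 and 0.121 in replicate 2.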

Other observations

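Several annotated genes overlap the matrix genes, and these values stand in no comparison above. The pseudogene Gm8546, on the opposite strand within Hapln1, had 0.41 TPM (12 counts) in replicate 1 and 2.54 TPM (75.7 counts) in replicate 2, against 165 and 123 counts of Hapln1. The noncoding 8030451A03Rik, opposite Tnc, had 2.62 and 2.03 TPM. The antisense gene Gm4117, opposite Vcan, had 40 and 46 counts at 0.03 TPM in each. Mir7066, within Ncan, was listed at 0 in both libraries. As the strand of counting is unknown, reads of overlapping genes cannot be told apart. These genes were named after their values were seen.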
